A study of Mus musculus with 18 samples.

Results

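The cyclin-dependent kinase inhibitors are small proteins that bind cyclin-dependent kinases (CDKs) and hold back the cell cycle. The 6 genes described here were taken by symbol: Cdkn1a, Cdkn1b and Cdkn1c of the Cip/Kip family, and Cdkn2a, Cdkn2b and Cdkn2c of the Ink4 family. They were read by 8 of the 45101 probe sets of the array, and all 6 were among the 11388 genes tested of the 18194 genes measured. Cip/Kip proteins bind cyclin-CDK complexes, above all those of Cdk2 with cyclins E and A. Ink4 proteins bind Cdk4 and Cdk6 and keep D cyclins from activating them, so that Rb family proteins go on restraining E2F factors. Mouse embryonic stem (ES) cells are known for high Cdk2 activity and little inhibitor, and for a longer G1 phase once they differentiate.

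Total RNA of AB1 mouse ES cells was hybridised to 18 single-colour arrays, 1 sample per array. AB1 is an ES cell line, and the cells were wild type or CYP26A1-/-, which lack intact copies of the gene for a cytochrome P450 that degrades retinoic acid (RA). For each genotype there were 3 arrays of control cells with leukemia inhibitory factor (LIF) at 8 h, 3 of cells given 100 nM RA with LIF for 8 h, and 2 given the same for 72 h. A single array per genotype held control cells without LIF at 8 h. LIF is the cytokine that maintains mouse ES cells. The title of 1 wild-type 8 h RA array names LIF while its source label does not. No control at 72 h is listed, so RA and time in culture cannot be told apart at 72 h. The labels do not say whether the CYP26A1-/- cells, called knockout below, are 1 clone, nor whether the repeats come from cultures of their own. What the p-values measure is then no more than how far these samples differ among themselves, and that may be technical.

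Signal is in the arbitrary linear units of the authors' MAS5 values, scaled so that the trimmed mean of each array is 500, and the median probe set of an array read 54.4 to 75.6. Values under 50 were set to 50 before taking log2, which understates differences of dim genes. It also removes the spread among arrays under 50, which can make the standard errors of dim genes too small. Differences are log2 values with their standard error as "±", means of signal carry their standard deviation (SD), and a gene is said to have risen or fallen where limma's adjusted p was under 0.05. The LIF target Socs3 went against the labels on 2 pairs of arrays. Socs3 read 368 and 215 on replicate 1 of the wild-type and knockout controls, which are labelled as kept with LIF. It read 3800.3 and 4551 on the arrays labelled as kept without LIF, and 2628 to 6001 on the other 14. Calls of the inhibitors and of named pathway genes that were lost without both control arrays of replicate 1 are therefore given as such. The disrupted gene, Cyp26a1, read 17.5 to 84.2 on wild-type controls, 637 to 1695 after 8 h of RA and 3211 to 3402 after 72 h. On knockout arrays it read 9.81 to 52.6, 193 to 216 and 2872.5 to 3075. The labels do not give the part of the gene that was disrupted, so its probe set does not check the knockout label. All 9 ES cell markers, among them Pou5f1, Nanog and Sox2, were above 50 on at least 1 array of every group. After 72 h of RA 4 of the 9 had fallen in each genotype, Utf1, Sox2, Zfp42 and Klf2, and Utf1 was then higher in knockout cells (0.75 ± 0.20, adjusted p = 0.0462). Without both control arrays of replicate 1, Klf2 in wild-type cells (adjusted p = 0.0518), Sox2 in knockout cells (0.0641) and the genotype difference of Utf1 (0.0571) were not called.

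RefSeq (GRCm38.p6) promoters of 300 bases, 250 before and 50 after a transcription start, were found for 5 of the 6 genes. Those of Cdkn1a, Cdkn2b and Cdkn2a are shown, since these genes had the largest differences between genotypes after 72 h of RA. Capitals mark matches to 3 hexamers searched on both strands, the GC box GGGCGG, the nuclear receptor hexamer AGGTCA and the TATA box TATAAA, and to the p53 element, searched with at most 1 mismatch in its outer bases. All are read 5′ to 3′ on the strand of the gene.
Cdkn1a, upstream start, plus strand, chr17:29090729-29091028: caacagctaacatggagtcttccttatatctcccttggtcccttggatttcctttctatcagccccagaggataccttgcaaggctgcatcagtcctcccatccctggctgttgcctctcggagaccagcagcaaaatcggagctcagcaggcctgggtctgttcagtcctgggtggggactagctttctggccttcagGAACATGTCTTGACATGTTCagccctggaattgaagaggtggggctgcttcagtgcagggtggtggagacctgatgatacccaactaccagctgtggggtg
Cdkn1a, downstream start, plus strand, chr17:29093519-29093818: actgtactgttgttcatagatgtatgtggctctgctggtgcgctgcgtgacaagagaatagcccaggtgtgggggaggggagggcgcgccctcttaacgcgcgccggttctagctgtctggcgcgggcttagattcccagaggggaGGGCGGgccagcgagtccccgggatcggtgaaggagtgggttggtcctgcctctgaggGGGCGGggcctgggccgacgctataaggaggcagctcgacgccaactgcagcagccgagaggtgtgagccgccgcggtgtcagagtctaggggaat
Cdkn2b, minus strand, chr4:89310983-89311282: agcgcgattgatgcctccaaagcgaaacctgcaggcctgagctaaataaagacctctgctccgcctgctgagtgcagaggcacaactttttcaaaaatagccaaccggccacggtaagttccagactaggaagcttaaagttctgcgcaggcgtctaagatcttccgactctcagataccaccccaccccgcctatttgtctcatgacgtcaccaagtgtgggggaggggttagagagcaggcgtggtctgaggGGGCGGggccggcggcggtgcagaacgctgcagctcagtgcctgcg
Cdkn2a, p19Arf start, minus strand, chr4:89294570-89294869: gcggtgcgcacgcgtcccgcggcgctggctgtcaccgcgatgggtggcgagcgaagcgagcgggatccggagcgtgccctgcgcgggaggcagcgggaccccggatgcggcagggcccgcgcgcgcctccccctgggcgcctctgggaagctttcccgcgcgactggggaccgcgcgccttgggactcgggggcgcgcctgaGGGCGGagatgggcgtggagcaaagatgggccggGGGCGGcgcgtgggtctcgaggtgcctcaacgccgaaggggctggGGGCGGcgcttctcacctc
Cdkn2a, p16Ink4a start, minus strand, chr4:89282143-89282442: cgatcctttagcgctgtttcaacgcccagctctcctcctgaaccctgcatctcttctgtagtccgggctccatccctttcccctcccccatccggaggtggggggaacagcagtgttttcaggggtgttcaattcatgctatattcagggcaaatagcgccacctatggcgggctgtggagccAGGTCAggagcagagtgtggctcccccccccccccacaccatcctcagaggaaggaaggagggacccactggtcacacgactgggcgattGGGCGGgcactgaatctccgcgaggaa

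In the upstream Cdkn1a window the capitals are 1 match to the p53 element, which 18 of 32851 promoters held (0.0548%). The downstream Cdkn1a window held 2 GC boxes, the Cdkn2b window 1, and the p19Arf window 3. GC boxes stood in 35.7% of all promoters. The p16Ink4a window held 1 GC box and 1 AGGTCA hexamer, and the hexamer stood in 16.3% of promoters. No window shown held TATAAA, which 13.6% of promoters held. Cdkn2a and Cdkn2b lie next to each other on chromosome 4, Cdkn2c is also on chromosome 4, Cdkn1a is on chromosome 17, Cdkn1b on chromosome 6 and Cdkn1c on chromosome 7. The Cdkn2a locus makes the kinase inhibitor p16Ink4a and, from another start and reading frame, the Mdm2-binding protein p19Arf. The files do not say which of its transcripts the Cdkn2a probe set reads.

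After 72 h of RA in wild-type cells, 4 of the 6 inhibitors had risen against control: Cdkn1a, Cdkn2b, Cdkn2c and Cdkn2a. Their log2 differences ran from 0.97 to 1.67, and no inhibitor had fallen. Of all genes tested, 24.7% were called in this comparison. In knockout cells 1 of the 6, Cdkn1a, had risen, where 23.0% of all genes were called. That share of the inhibitors was no larger than the background. The median log2 difference of the 6 was 1.07 in wild-type cells, against 0.06 over all genes, and 0.39 in knockout cells, against 0.06. The signals behind these differences are plotted array by array.

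**Figure D1:**
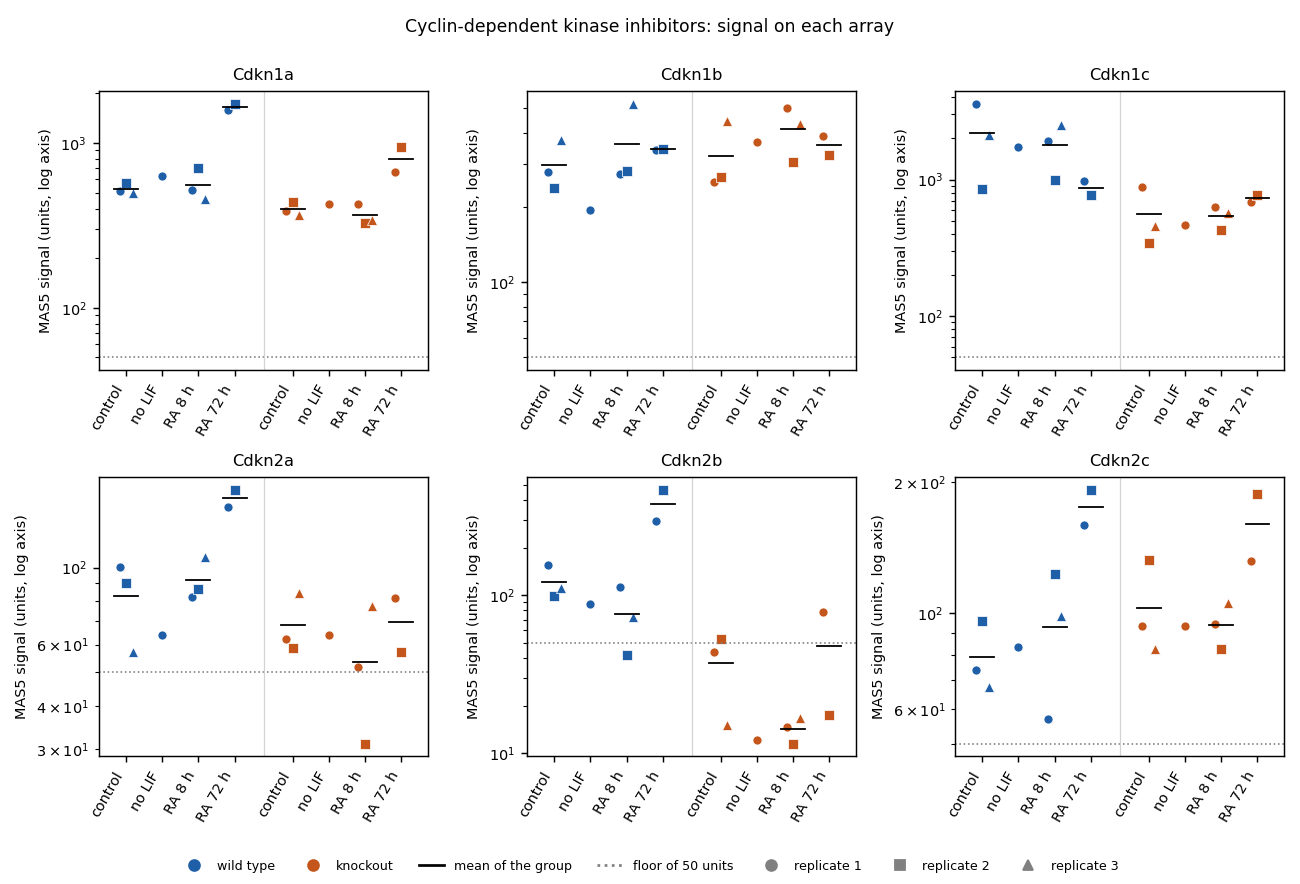
MAS5 signal of the 6 inhibitors (log axis, arbitrary units) on each of the 18 arrays, by genotype and condition, with circles, squares and triangles for replicates 1, 2 and 3, a bar for the group mean and a dotted line at the floor of 50. Cdkn1a, Cdkn2a and Cdkn2b were highest on the wild-type 72 h arrays, Cdkn1c was highest on a wild-type control array, and Cdkn2b lay under the floor on all 3 knockout arrays after 8 h of RA.

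Cdkn1a encodes p21, the Cip/Kip inhibitor known as a direct target of p53. Its signal on the wild-type control arrays was 508, 569.6 and 495 (524 ± 39.9, SD, n = 3), and it was 1591 and 1732 after 72 h of RA (1662 ± 99.9, n = 2). Both treated arrays lay far above every control array, and Cdkn1a had risen by 1.67 ± 0.20, or 3.17-fold (adjusted p = 3.0e-05), a call that held under all 26 alternatives. In knockout cells the controls read 387, 439.7 and 364 (397 ± 38.8, n = 3) and the 72 h arrays 665 and 943 (804 ± 197, n = 2). These groups did not overlap either, and the rise was 2.00-fold, with a standard error of 0.20 on the log2 scale (adjusted p = 0.00234). That call was lost without the knockout 72 h array of replicate 2 (0.75, adjusted p = 0.0611) and with the mean of the gene's probe sets (0.79, adjusted p = 0.112). The other Cdkn1a probe set was dimmer, at 31.6 to 526, and differed in the same direction without passing the test (wild type 1.28 ± 0.55, adjusted p = 0.131, and knockout 0.58 ± 0.55, adjusted p = 0.555). In the order of group means the wild-type 72 h arrays came first, without overlap, and the knockout 72 h arrays second. The latter overlapped with wild-type arrays after 8 h of RA (454 to 705), and the other wild-type groups stood above the other knockout groups.

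In these bulk samples, a change in the share of cells of some type and a change in RNA per cell cannot be told apart. Markers of extraembryonic endoderm, the lineage that RA is known to bring out in ES cell cultures, moved with the 72 h groups. Of the 15 tested, 14 rose in wild-type cells and 12 in knockout cells. Without both control arrays of replicate 1 they numbered 11, with Dab2, Sparc, Cubn and Amn lost and Lama1 gained, and 13, with Lama1 gained. Their summed signal went from 8919 to 17450 on wild-type controls to 40448 to 44203 at 72 h, and from 6616 to 11792 on knockout controls to 32028 to 32767, with Afp under the floor in both 72 h groups and Ttr in knockout cells. Trophoblast markers rose at 5 of 8 in wild-type and 2 of 8 in knockout cells, with summed signals of 13012 to 13954 and 3431 to 3931 at 72 h against 1519 to 2642 and 1816 to 1987 in the controls. Elf5 was under the floor in both 72 h groups, as were Cdx2, Gata3, Plac1 and Ascl2 in knockout cells. Fibroblast feeder markers summed to 569 to 910 on wild-type controls and 1095 to 1848 at 72 h, and to 640 to 760 and 606 to 785 in knockout cells. Of the 2 tested, Pdgfrb rose and Thy1 fell in both genotypes. At 72 h Postn was under the floor in both genotypes, as were Col1a1, Col3a1, Lum, Dcn and Fbln5 in knockout cells. Of the 4 neural progenitor markers tested, 1 fell in wild-type and 1 rose in knockout cells at 72 h. Without both control arrays of replicate 1, calls numbered 2 and 1. Their summed signal in wild-type cells was 1444 to 1550 on controls and 1401 to 1460 at 72 h. In knockout cells it was 1020 to 1281 and 1364 to 1609. At 72 h Neurog2, Hes5 and Dcx were under the floor in both genotypes, as was Zic1 in knockout cells. The part of these cell types in the inhibitors' differences was not tested.

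Cdkn1b encodes p27, the Cip/Kip inhibitor that the Skp2 ubiquitin ligase marks for degradation in cycling cells. On wild-type arrays it read 278, 241 and 373 in control cells and 341 and 345 after 72 h of RA. On knockout arrays it read 254, 265 and 445 in control cells and 387 and 325 at 72 h. In each genotype the 72 h values lay within the range of the controls. The differences were 0.23 ± 0.32 in wild-type (adjusted p = 0.649) and 0.19 ± 0.32 in knockout cells (adjusted p = 0.720), and no alternative called either. The group means of Cdkn1b, ordered from the highest to the lowest, overlapped at every step but the last, below which lay the single wild-type array without LIF. Its other probe set was under the floor on all 18 arrays.

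Cdkn1c encodes p57, the Cip/Kip inhibitor of an imprinted cluster, which is expressed from the maternal copy. It varied most between replicates, with 3594, 852 and 2133 on wild-type controls (2193 ± 1372, n = 3) and 973 and 764 after 72 h of RA (869 ± 147, n = 2). Control replicate 2 lay between the treated arrays, so the groups overlapped, and the difference of -1.12 ± 0.50 did not pass the test (adjusted p = 0.120). Without that array Cdkn1c had fallen (-1.68, adjusted p = 0.0123), and without both control arrays of replicate 1 the difference was -0.64 (adjusted p = 0.307). Knockout cells read 889, 343 and 459 in control (564 ± 288, n = 3) and 689 and 764 at 72 h (726 ± 53.4, n = 2), a difference of 0.48 ± 0.50 (adjusted p = 0.547). At 72 h the genotypes lay close together, since the lower wild-type and the higher knockout array both read 764.

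Cdkn2b encodes p15, the Ink4 inhibitor known to be induced by TGF-beta and repressed by Myc. It reached 100 on 5 of the 16 arrays of the fit, all of them wild type, so it was tested through wild-type arrays alone. On wild-type arrays it read 155, 99.0 and 111 in control cells (122 ± 29.4, n = 3) and 296 and 464 after 72 h of RA (380.1 ± 119, n = 2). The 72 h arrays stood clear of all others, and the rise was 1.63 ± 0.33, or 3.10-fold (adjusted p = 0.00214). It missed the threshold only without the wild-type 72 h array of replicate 2 (1.31, adjusted p = 0.0551). On knockout arrays Cdkn2b read 43.8, 53.1 and 15.1 in control cells, and 77.8 and 17.4 at 72 h. Of these 5 arrays 3 were under the floor, and the difference was 0.29 ± 0.33 (adjusted p = 0.587).

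Cdkn2a was dim, reaching 100 on 4 of the 16 arrays of the fit, all of them wild type. It thus passed the filter for testing through wild-type arrays alone. In wild-type cells it read 100.2, 90.4 and 57.2 in control (82.6 ± 22.6, n = 3) and 149 and 167 after 72 h of RA (158 ± 12.9, n = 2). The groups did not overlap, and the rise was 0.97 ± 0.30 (adjusted p = 0.0279). It was the least stable of the 4 calls, and was lost without wild-type 72 h replicate 1 (adjusted p = 0.101), 72 h replicate 2 (0.173) or control replicate 3 (0.0990). It was also lost with quantile normalization (0.105), with only the compared groups in the fit (0.0794) and with log2 of the signal plus 32 (0.0565). In knockout cells the controls read 62.2, 58.5 and 84.5 and the 72 h arrays 82.0 and 57.2, with a difference of 0.02 ± 0.30 (adjusted p = 0.975).

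Cdkn2c encodes p18, an Ink4 inhibitor found in many dividing precursor cells. Its wild-type signal was 73.8, 96.0 and 67.7 in control (79.2 ± 14.9, n = 3), and 159 and 192 after 72 h of RA (176 ± 23.3, n = 2). The groups did not overlap, and the rise was 1.16 ± 0.32 (adjusted p = 0.0149). It was lost without 72 h replicate 1 (adjusted p = 0.0558) or replicate 2 (0.129). Knockout cells read 93.3, 132 and 82.7 in control and 132 and 188 at 72 h, so that the groups overlapped, with the highest control and the lowest treated array both at 132. Their difference was 0.65 ± 0.32 (adjusted p = 0.167). Cdkn2c was the member whose 72 h levels were nearest between genotypes among those that rose, with wild-type and knockout arrays interleaved.

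**Figure D2:**
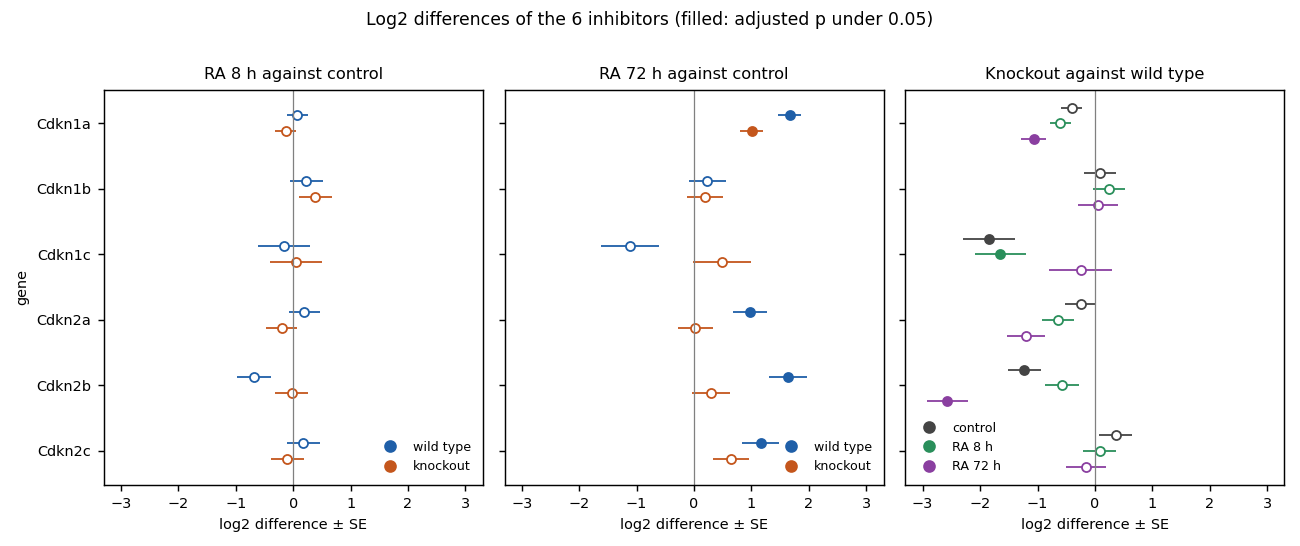
Log2 differences with standard errors of the 6 inhibitors for RA 8 h against control, RA 72 h against control and knockout against wild type, with filled points where the adjusted p was under 0.05. Filled points appear in neither contrast of 8 h of RA against control, at 72 h against control for 4 genes in wild-type and 1 gene in knockout cells, and on the negative side between genotypes, for 2, 1 and 2 genes in control cells, at 8 h and at 72 h of RA.

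After 8 h of RA, 0 of the 6 inhibitors were called by limma in either genotype, against 0.904% of all genes in wild-type and 0.957% in knockout cells. At an unadjusted p under 0.05 there were 1 and 0 of the 6, and 895 and 986 of all genes. The 1 was Cdkn2b in wild-type cells, which read 113, 42.1 and 73.2 after 8 h of RA, a difference of -0.68 ± 0.29 from control (unadjusted p = 0.0357, adjusted p = 0.561). Its treated and control arrays overlapped. Cdkn1a read 517, 705 and 454 in wild-type and 423, 326 and 343 in knockout cells at 8 h. Those differences were 0.07 ± 0.18 and -0.13 ± 0.18. Cdkn1b, Cdkn1c, Cdkn2a and Cdkn2c differed by -0.20 to 0.38 over both genotypes, and Cdkn2b in knockout cells was under the floor on all 3 treated arrays.

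Between 8 h and 72 h of RA, 3 of the 6 had risen in wild-type cells, where 22.3% of all genes were called, and 1 of 6 in knockout cells, where 19.2% were. These contrasts use the same 72 h arrays as those above. They were Cdkn2b (2.31 ± 0.33, adjusted p = 0.000151), Cdkn1a (1.60 ± 0.20, adjusted p = 6.1e-05) and Cdkn2c (0.98 ± 0.32, adjusted p = 0.0374) in wild-type cells, and Cdkn1a (1.13 ± 0.20, adjusted p = 0.00125) in knockout cells. The Cdkn1a call in knockout cells was lost with the mean of its probe sets (adjusted p = 0.101). With the replicate block, which takes the number in the titles and sets all titles without one as a single level, Cdkn2a was called as well (0.94, adjusted p = 0.0478) and Cdkn2c was not (0.85, adjusted p = 0.0864). Cdkn2c read 57.1, 123 and 98.4 at 8 h, and its call was also lost in 9 other alternatives, among them that without both control arrays of replicate 1 (adjusted p = 0.0513), without 72 h replicate 1 (0.102) or 2 (0.230), and without 8 h replicate 1 (0.137) or 3 (0.0531).

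Knockout cells read lower than wild-type cells for 2 of the 6 inhibitors in control cells, Cdkn1c and Cdkn2b, against 4.64% of all genes called. After 8 h of RA 1 was lower, Cdkn1c, against 4.61%. After 72 h of RA 2 were lower, Cdkn2b and Cdkn1a, against 4.07%. No inhibitor was called higher in knockout cells. The median difference of the 6 was -0.33, -0.59 and -0.66 at these conditions, while the median over all genes lay between -0.01 and 0.00. Cdkn2a and Cdkn2b passed the filter for testing through wild-type arrays alone, the genotype where they are high. Their part in these counts and medians is therefore no independent support for lower signal in knockout cells. Genes of chromosomes 4, 6, 7 and 17, which hold the 6, had median differences between -0.03 and 0.05. Chromosome 19 was shifted, with medians of 0.466 to 0.485, and chromosome 8, with -0.287 to -0.236. Neither of these holds an inhibitor described here. What part those shifts have in the inhibitors' differences was not tested. It cannot be told apart here from the disruption of Cyp26a1.

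Cdkn1c gave the largest difference in control cells, -1.85 ± 0.45 or 3.60-fold lower (adjusted p = 0.0278). The wild-type signals of 3594, 852 and 2133 and the knockout signals of 889, 343 and 459 overlapped, with wild-type replicate 2 just under knockout replicate 1. The call was lost without both control arrays of replicate 1, which went against their LIF labels (-1.77, adjusted p = 0.0579). It was also lost without wild-type control replicate 1 (-1.38, adjusted p = 0.122) or 3 (0.0733), without knockout control replicate 2 (0.135) or 3 (0.0926), with no filter on dim genes (0.120) and with only the compared groups (0.121). At 8 h of RA wild-type arrays read 1909.6, 993 and 2488 (1797 ± 754, n = 3) and knockout arrays 625, 431 and 572 (543 ± 101, n = 3), which did not overlap. The difference was -1.65 ± 0.45 (adjusted p = 0.0497). With the replicate block the adjusted p was 0.0667 (-1.52), and the call was lost in 18 alternatives in all, with adjusted p-values from 0.0501 to 0.174. The loss occurred without any 1 of the 3 knockout 8 h arrays (0.0938, 0.143 and 0.114) or of the wild-type 8 h arrays of replicates 1 and 3 (0.140 and 0.174). It also occurred without any 1 of the 4 arrays at 72 h (0.0611 to 0.0680) and without knockout control replicate 2 (0.0501) or 3 (0.0612) or wild-type control replicate 3 (0.0544), with the difference itself unchanged at -1.65. Without both control arrays of replicate 1 it held (adjusted p = 0.0165). At 72 h the difference was -0.25 ± 0.55 (adjusted p = 0.906).

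Of the genes around Cdkn1c in its imprinted region, 8 were tested, and 0 were called between genotypes in control cells or after 8 h of RA. Phlda2, a growth-restraining gene expressed from the maternal copy like Cdkn1c, read 5388 to 8547 on wild-type and 3530.2 to 4492 on knockout controls. That difference of -0.76 ± 0.23 had an adjusted p of 0.0775, and with the replicate block it was called (adjusted p = 0.00147). At 8 h of RA it was -0.69 ± 0.23 (adjusted p = 0.112, and 0.00241 with the block). Kcnq1ot1, the non-coding RNA that silences genes of this cluster on the paternal copy, differed by -0.27 ± 0.36 in control cells (adjusted p = 0.830). After 72 h of RA Phlda2 had fallen in both genotypes (-1.70 ± 0.26, adjusted p = 0.000210, and -0.93 ± 0.26, adjusted p = 0.0169). Igf2, a paternally expressed growth factor nearby, had risen in both (3.27 ± 0.32, adjusted p = 3.9e-06, and 2.09 ± 0.32, adjusted p = 0.000267). Slc22a18 had fallen in knockout cells (-1.16 ± 0.38, adjusted p = 0.0399). At 72 h Igf2 was lower in knockout cells (-1.64 ± 0.35, adjusted p = 0.0134), at 672 to 763 against 2164 to 2308.5.

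**Figure D3:**
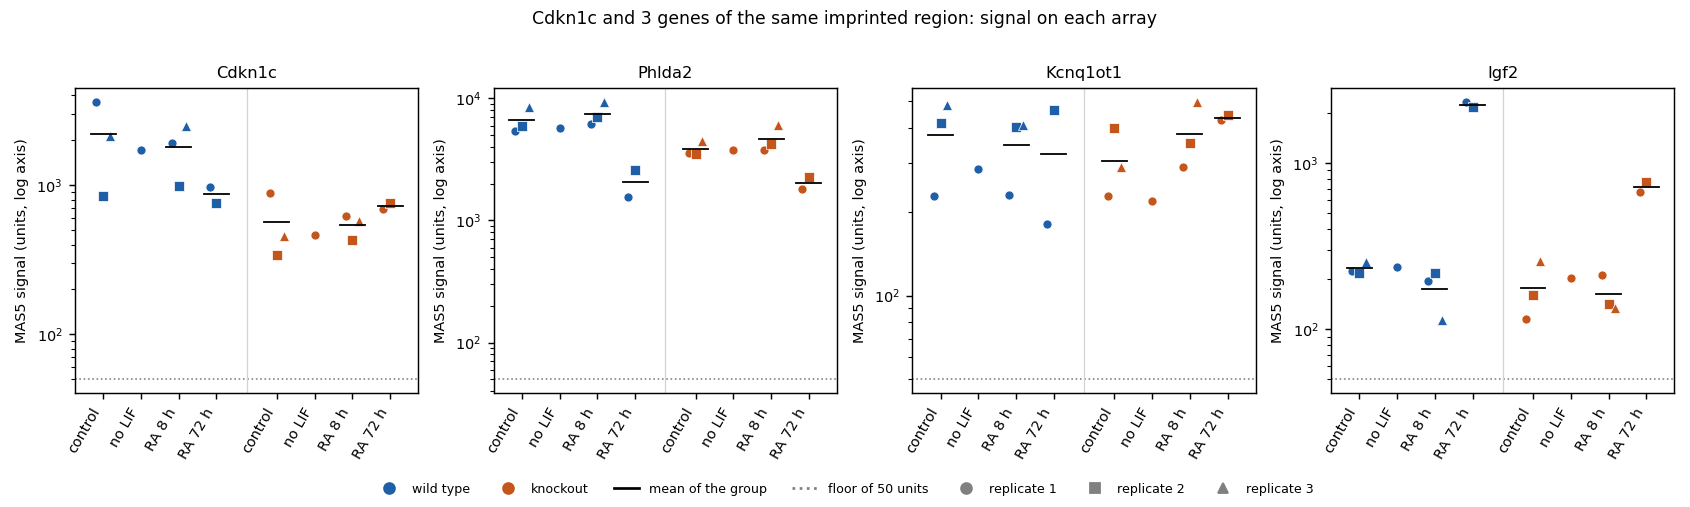
MAS5 signal (log axis, arbitrary units) of Cdkn1c, Phlda2, Kcnq1ot1 and Igf2 on each array, by genotype and condition, with a shape per replicate, a bar for the group mean and a dotted line at the floor of 50. Igf2 rose and Phlda2 fell at 72 h in both genotypes. Cdkn1c was called lower in knockout cells in control, where the groups overlapped, and after 8 h of RA. These calls were lost in 7 and 18 of 26 alternatives. At 72 h Cdkn1c lay at 689 to 973 on all 4 arrays.

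Cdkn2b was lower in knockout than in wild-type controls, with a difference of -1.23 ± 0.29 (adjusted p = 0.0264), with 43.8, 53.1 and 15.1 against 155, 99.0 and 111. The groups did not overlap, but 2 of the 3 knockout arrays lay under the floor. The call in control cells was lost in 10 of 26 alternatives, among them that without both control arrays of replicate 1 (-1.03, adjusted p = 0.226). Single arrays that ended it were the knockout controls of replicates 1, 2 and 3 (adjusted p = 0.0740, 0.0747 and 0.0799) and the wild-type controls of replicates 1 (0.116) and 3 (0.0515). With a floor of 100 the difference was -0.26 (adjusted p = 0.520). Knockout arrays read 14.6, 11.5 and 16.8 after 8 h of RA, all under the floor. With 1 of the 3 wild-type arrays under the floor as well, the difference of -0.58 ± 0.29 between floored values did not pass the test (adjusted p = 0.354). At 72 h the knockout values of 77.8 and 17.4 stood against 296 and 464, a difference of -2.57 ± 0.36 or 5.94-fold (adjusted p = 0.000951). The groups did not overlap, and this call held in all 26 alternatives. Cdkn2b passed the filter through wild-type arrays alone, the genotype where it is high. With no filter on dim genes the call at 72 h held and that in control cells was lost (adjusted p = 0.0629).

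Cdkn1a was also lower in knockout cells at 72 h, with 665 and 943 against 1591 and 1732, a difference of -1.07 ± 0.22 or 2.10-fold (adjusted p = 0.0114). It was lost without knockout 72 h replicate 1 (-0.82, adjusted p = 0.163), wild-type 72 h replicate 1 (0.0693) or 2 (0.125), and with the mean of the probe sets (0.0984). The dimmer Cdkn1a probe set gave -1.28 ± 0.60 (adjusted p = 0.389). In control cells the difference was -0.40 ± 0.18 (adjusted p = 0.282) and after 8 h of RA -0.60 ± 0.18 (adjusted p = 0.0755). With the replicate block that after 8 h was called (-0.63, adjusted p = 0.0473). Cdkn2a differed by -1.21 ± 0.33 at 72 h (adjusted p = 0.0554), and was called with the block (adjusted p = 0.0447), with a floor of 100 (8.2e-05), with the mean of the probe sets (0.0347) and without wild-type control replicate 3 (0.0357). All knockout arrays read under 100 for Cdkn2a, so that floor removes their spread by construction. Cdkn2a has 1 probe set, so the mean of the probe sets leaves its own values unchanged and is no separate measurement. Its 72 h arrays did not overlap between genotypes. In control and 8 h RA cells it differed by -0.25 ± 0.27 and -0.64 ± 0.27 (adjusted p = 0.751 and 0.231). Cdkn1b and Cdkn2c differed by -0.15 to 0.36 between genotypes at the 3 conditions, and no alternative called either.

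Marker levels differed between genotypes at the same conditions. Extraembryonic endoderm markers were lower in knockout controls at 4 of 15, with the summed signals given above, and at 2 of 15 without both control arrays of replicate 1. After 8 h of RA 3 of 15 were lower, Lamb1, Gata6 and Cubn, with and without those arrays, and at 72 h 1 of 15, Plat. Trophoblast markers were lower in knockout cells at 72 h at 4 of 8. In control cells 1 of 8, Eomes, was higher in knockout cells (0.97 ± 0.26, adjusted p = 0.0463). The 72 h interaction of genotype and RA was called negative for the trophoblast markers Krt18, Krt7 and Eomes and positive for the endoderm marker Gata6. The Eomes call in control cells and these interaction calls were lost without both control arrays of replicate 1. The part of these cells in the genotype differences of the inhibitors was not tested.

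Whether RA acted differently in the genotypes was tested as an interaction. At 8 h limma called 0 of the 6 and 0.00% of all genes, and 0 of the 6 had an unadjusted p under 0.05, against 211 genes in all. At 72 h it again called 0 of the 6, against 0.342% of all genes. Of the 6, 4 had an unadjusted p under 0.05, as did 645 genes in all. For Cdkn2b the interaction was -1.34 ± 0.47 (unadjusted p = 0.0113, adjusted p = 0.530), a value computed from floored signals. The others were Cdkn1a (-0.67 ± 0.29, adjusted p = 0.812), Cdkn2a (-0.95 ± 0.43, adjusted p = 0.853) and Cdkn1c (1.60 ± 0.71, adjusted p = 0.847). With a floor of 100, which by construction removes the spread of dim arrays, Cdkn2a (-0.66, adjusted p = 0.00150) and Cdkn2b (-1.63, adjusted p = 0.00286) were called. The different number of calls at 72 h in wild-type and knockout cells is therefore not shown to be a difference in response.

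Among the partners, regulators and related genes of the inhibitors, 10 lists of known genes were counted. All their counts at 72 h against control stand beside 24.7% of all genes called in wild-type and 23.0% in knockout cells. Between genotypes they stand beside 4.64% in control cells, 4.61% after 8 h of RA and 4.07% after 72 h. The other CDK inhibitor genes, Cdkn2d (p19 of the Ink4 family) and Cdkn3 (a phosphatase that acts on Cdk2), had both risen after 72 h of RA in both genotypes. Cdkn3 rose by 1.14 ± 0.17 in wild-type (adjusted p = 0.000223) and 0.66 ± 0.17 in knockout cells (adjusted p = 0.0123), and Cdkn2d by 0.69 ± 0.14 (adjusted p = 0.00207) and 0.55 ± 0.14 (adjusted p = 0.00983). In control cells Cdkn3 was higher in knockout than in wild-type cells (0.70 ± 0.15, adjusted p = 0.0168), a call lost without both control arrays of replicate 1.

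Of the 10 tested kinase partners that Ink4 and Cip/Kip proteins act on, those called at 72 h are named here, beside the 24.7% and 23.0% of all genes called. Of the 5 D cyclins and their kinases, Ccnd1, the gene for cyclin D1, had fallen in both genotypes. It went from 1927 to 2853 on wild-type controls to 874 and 1000.4 at 72 h (-1.42 ± 0.23, adjusted p = 0.000324), and from 2939 to 3762 to 609 and 881 in knockout cells (-2.13 ± 0.23, adjusted p = 9.4e-06). Ccnd2, for cyclin D2, had risen in wild-type cells (1.56 ± 0.49, adjusted p = 0.0287), and Cdk6 had fallen in knockout cells (-2.81 ± 0.38, adjusted p = 8.8e-05). Of the 5 tested genes of cyclins E and A, Cdk2 and Cdc25a, Ccne1 had fallen in both (-1.67 ± 0.34, adjusted p = 0.00216, and -1.52 ± 0.34, adjusted p = 0.00440). Ccna2 had fallen in wild-type cells (-0.36 ± 0.12, adjusted p = 0.0411), a call lost with the replicate block (0.0885) and without both control arrays of replicate 1 (0.0768). Between genotypes 0 of these 10 tested genes were called in any condition. The interaction of genotype and RA at 72 h called 0 of them as well. The calls of Ccnd2, Cdk6 and Ccna2 in 1 genotype are therefore not shown to be a difference in response.

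Downstream, 3 of the 12 pocket protein and E2F genes had risen and 2 had fallen at 72 h, in either genotype. Those that rose were Rb1 (1.17 ± 0.37 and 1.30 ± 0.37 in wild-type and knockout cells), its relative Rbl1 (0.93 ± 0.18 and 0.91 ± 0.18) and the repressor E2f6 (0.89 ± 0.19 and 1.17 ± 0.19). E2f8, another repressor (-1.50 ± 0.13 and -1.53 ± 0.13), and Tfdp1, the DNA-binding partner of E2F factors (-0.59 ± 0.10 and -0.84 ± 0.10), fell. Rbl2 was lower in knockout controls (-0.84 ± 0.22, adjusted p = 0.0372, and 0.0607 with the block). Of the 7 genes of p27 degradation, Cul4a had risen in both genotypes (0.84 ± 0.17, adjusted p = 0.00272, and 0.51 ± 0.17, adjusted p = 0.0452). Its partner Ddb1 was higher in knockout cells in control (0.54 ± 0.11, adjusted p = 0.0114) and after 8 h of RA (0.51 ± 0.11, adjusted p = 0.0178). The genotype differences of Rbl2, Ddb1 and the other pathway genes were not set against the shifts of chromosomes 8 and 19 given above. They are therefore not shown to be particular to these genes.

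**Figure D4:**
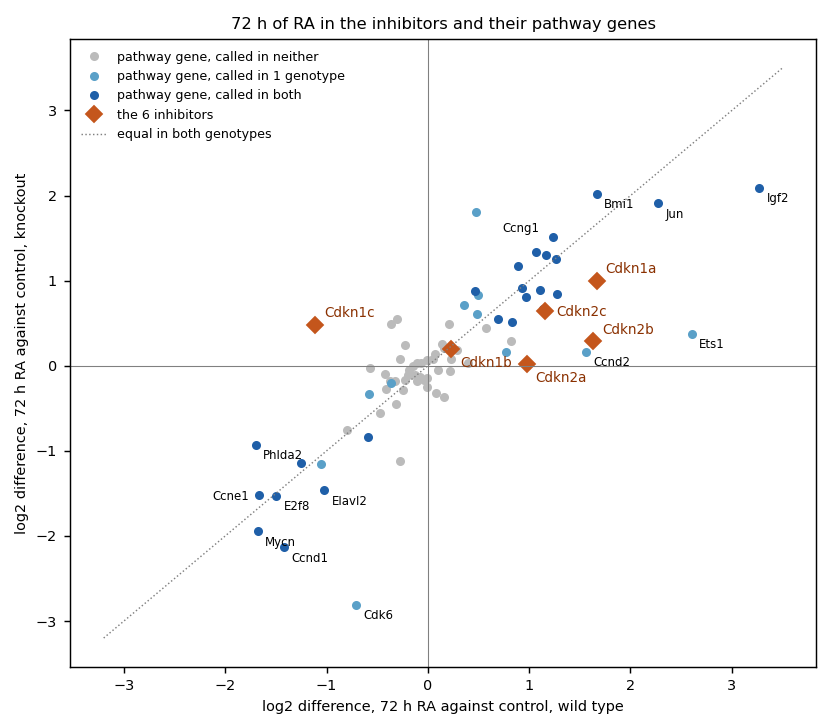
Log2 difference after 72 h of RA against control in wild-type (horizontal axis) and knockout cells (vertical axis) for the 6 inhibitors (diamonds) and the tested genes of the 10 pathway lists (circles, shaded by the number of genotypes in which they were called), with a dotted line where both are equal. Cdkn1a, Cdkn2a, Cdkn2b and Cdkn2c lie right of 0 and below the dotted line, and Cdkn1c lies in the upper left.

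The p53 list was drawn up from p53 and its known targets, of which Cdkn1a is another. In it 4 of the 8 tested genes had risen at 72 h in wild-type cells and 7 of 8 in knockout cells. No gene of the list had fallen. Ccng1, the cyclin G1 gene and a p53 target, rose by 1.24 ± 0.21 (adjusted p = 0.000564) and 1.51 ± 0.21 (adjusted p = 0.000120). Sesn1 rose by 1.11 ± 0.25 and 0.89 ± 0.25, Trp53inp1 by 1.07 ± 0.28 and 1.34 ± 0.28, and Zmat3 by 0.47 ± 0.15 and 0.88 ± 0.15. Pmaip1, Mdm2 and Bbc3 rose in knockout cells (1.81 ± 0.49, 0.72 ± 0.21 and 0.83 ± 0.26). In control cells 3 of the 8 were lower in knockout than in wild-type cells, Ccng1 (-0.97 ± 0.19), Zmat3 (-0.59 ± 0.13) and Bbc3 (-1.02 ± 0.23), and without both control arrays of replicate 1 Ccng1 alone of the 8 was. After 8 h of RA 2 of 8 were lower, Ccng1 (-0.87 ± 0.19) and Zmat3 (-0.55 ± 0.13), and 0 at 72 h. The median over the list at 72 h was 0.49 in wild-type and 0.88 in knockout cells, against 0.06 over all genes in each. The interaction of genotype and RA at 72 h called 0 of the 8. The different counts and medians are therefore not shown to be a difference in response.

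Of 13 known regulators of the Ink4 locus, 4 had risen and 1 had fallen at 72 h in wild-type cells, and 2 had risen in knockout cells. Over all genes 24.7% and 23.0% were called, so the knockout share was not above that background. Bmi1, a Polycomb repressor of Cdkn2a, rose in both (1.67 ± 0.21, adjusted p = 3.7e-05, and 2.02 ± 0.21, adjusted p = 6.7e-06), and so did Jun (2.27 ± 0.40, adjusted p = 0.000721, and 1.91 ± 0.40, adjusted p = 0.00292). Ets1, known as an activator of p16Ink4a, read 3.68 to 10.1 on wild-type controls and 258 and 359.98 at 72 h. It rose by at least 2.61 ± 0.25 (adjusted p = 3.9e-06), since all control arrays were under the floor. In knockout cells Ets1 read 53.7 and 78.1 at 72 h. It was lower there than in wild-type cells by a log2 difference of -2.23 ± 0.28 (adjusted p = 0.000533), and its interaction at 72 h was called (-2.23 ± 0.36, adjusted p = 0.0180). The values are equal because the control arrays of the fit stood at the floor in both genotypes. The interaction thus repeats the genotype difference at 72 h and is no separate result. Floored arrays have no spread, which can make both standard errors too small. No control array of the fit and no knockout 72 h array reached the signal that the filter for testing asks for. Ets2 rose (0.77 ± 0.20) and the Polycomb gene Eed fell (-0.58 ± 0.14) in wild-type cells. Bmi1 was lower in knockout cells in control (-1.13 ± 0.19, adjusted p = 0.00332) and after 8 h of RA (-0.86 ± 0.19, adjusted p = 0.0155), and without both control arrays of replicate 1 the call in control cells was lost.

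Of 13 genes for TGF-beta, Myc and FoxO regulators of these inhibitors, 3 had risen and 2 had fallen at 72 h in each genotype. Myc (-1.25 ± 0.24 and -1.14 ± 0.24) and Mycn (-1.68 ± 0.30 and -1.94 ± 0.30), known as repressors of Cdkn1a and Cdkn2b, fell. Foxo3 (1.26 ± 0.18 in both), Klf6 (1.28 ± 0.19 and 0.85 ± 0.19) and the TGF-beta mediator Smad3 (0.97 ± 0.22 and 0.81 ± 0.22) rose. At 8 h of RA, Foxo3 was the 1 pathway gene called, in wild-type cells (0.79 ± 0.16, adjusted p = 0.0262). Of 3 tested neighbours of Cdkn2a and Cdkn2b, Elavl2 had fallen at 72 h in both genotypes (-1.02 ± 0.19 and -1.46 ± 0.19) and Klhl9 had risen in knockout cells (0.61 ± 0.21). Without both control arrays of replicate 1 Klhl9 was called in wild-type (0.60, adjusted p = 0.0424) and not in knockout cells (0.43, adjusted p = 0.144). Mtap, the gene next to Cdkn2a, differed by 0.00 ± 0.14 in wild-type and 0.07 ± 0.14 in knockout cells at 72 h. Between genotypes 0 of the 3 were called. Also lost without those arrays were the calls of Rbl2 (adjusted p = 0.382) and Ddb1 (0.0987) in control cells, Cul4a in knockout cells (0.0838), Foxo3 at 8 h (0.132) and the interaction of Ets1 (0.0975). Gained were Sesn1 at 8 h in wild-type cells (0.97, adjusted p = 0.0354), Eed at 72 h in knockout cells (-0.45, adjusted p = 0.0160) and Slc22a18 at 72 h in wild-type cells (-1.34, adjusted p = 0.0267).

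Over the 18 arrays, which share their groups, the genes whose log2 signal was most like that of Cdkn1a were Arfgef1, Prickle1 and Lgals1 (Pearson's r of 0.96, 0.96 and 0.95). Those most like Cdkn2b were Mlf1, Sh3rf1 and Hacd1 (0.98, 0.92 and 0.92), and those most like Cdkn2a were Thbs1, Anxa3 and Elovl2 (0.83, 0.82 and 0.81). For Cdkn2c they were Tmed4, Fam114a1 and Sh3pxd2b (0.91, 0.89 and 0.88), for Cdkn1c Ptgis, Ntpcr and Lyplal1 (0.89, 0.88 and 0.87), and for Cdkn1b Gstt3, Pdp2 and Nelfb (0.82, 0.81 and 0.80). Between the inhibitors the highest correlation was that of the neighbours Cdkn2a and Cdkn2b (0.79), followed by Cdkn1a with Cdkn2b (0.77) and with Cdkn2c (0.70). Cdkn1b correlated with the others at -0.16 to 0.10, and Cdkn1c with Cdkn2c at -0.40. These values describe the arrays and carry no test.

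The single arrays labelled as kept without LIF were not tested. Cdkn1a read 634 in wild-type and 425 in knockout cells there, Cdkn1b 196 and 365, and Cdkn1c 1731 and 465. The wild-type Cdkn1a value was above its 3 controls, but the other Cdkn1a probe set read 118 there, below its controls of 129 to 175, and 31.6 in knockout cells, where its controls read 57.8 to 133. The wild-type Cdkn1b value was below its 3 controls. Cdkn2a read 64.1 and 63.9, Cdkn2b 88.5 and 12.0, and Cdkn2c 83.7 and 93.1. In wild-type cells Cdkn2b was below its controls, in knockout cells it was under the floor like 2 of its 3 controls, and Cdkn1c, Cdkn2a and Cdkn2c lay within theirs in both genotypes. Given the Socs3 values above, whether these arrays hold cells without LIF is uncertain.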

How the data were processed

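Biotin-labelled RNA of 18 samples was hybridised to single-colour arrays, per the labels' protocols. The intensity values the authors deposited are linear signals made with MAS5, per the submitters' processing notes, with the version not given in the sources used here. Their trimmed mean, leaving out 2% at each end, was 500 on every array as deposited. Every value column was matched to 1 sample by its label. A signal was raised to a floor of 50 where lower and put on the log2 scale. Probe sets were named from the platform annotation: 34958 had 1 symbol, 932 several and 9211 none. A gene was represented by its probe set with the highest mean, and tested where at least 2 of 16 arrays reached 100. The 16 arrays of 6 groups were fitted together in limma 3.58.1 (R 4.3.3; lmFit, and eBayes with a trend), with Benjamini-Hochberg adjustment over the 11388 genes tested and a threshold of 0.05. The arrays without LIF were left out of the fit, with 1 per genotype.

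Under the floor were 41.6% to 48.3% of an array's probe sets, and the number of arrays limits the precision. Same-numbered samples deviated together in 12 of 12 pairs (correlations of 0.106 to 0.504). These pairs share arrays, and samples with different numbers were not compared. The correlations thus do not show that the title numbers pair samples, and a fit with the number as a block was only an alternative. Titles without a number share 1 level of the block, which puts replicates 1 and 2 of the wild-type control and 8 h RA groups together; replicate numbers elsewhere in the text and figures only name arrays there. The other alternatives were other floors, filters, scalings, probe set rules, a fit of the compared groups alone, and leaving out single arrays or both control arrays of replicate 1. The fit was tested on simulated data, in which only brighter genes were changed and no floor was applied. That test does not cover dim genes such as Cdkn2a, Cdkn2b and Cdkn2c. All 6 inhibitors are named, with up to 4 called genes of smallest adjusted p per pathway list and comparison, and the 3 genes most like each inhibitor. Named beyond this rule, with their values seen, are Rb1, Ets2 and Smad3 at 72 h, Sesn1, Mdm2 and Bbc3 in knockout cells, and the uncalled Kcnq1ot1, Mtap and, between genotypes, Phlda2. The members and lists were chosen with earlier results of these data known. Promoters came from RefSeq (GRCm38.p6), and the platform's symbols were set against RefSeq, where 34754 probe sets matched.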

Additional observations from a re-analysis of the deposited data

Results flagged for a closer look

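On the single wild-type array labelled as kept without LIF, Cdkn1a read 634, above the highest of the 3 wild-type control arrays (569.6). The other Cdkn1a probe set went the other way, with 118 on this array against 129 to 175 on the controls. It is a signal on an array that no comparison uses, with no replicate, and its difference from control was not tested. In knockout cells the corresponding array read 425, within the range of the controls, and the other probe set 31.6, below its controls of 57.8 to 133.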

How the results depend on the processing

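With each array left out in turn, the inhibitors called after 72 h of RA against control numbered 1 to 5 in wild-type (4 with all arrays) and 0 to 1 in knockout cells (1). Against 8 h of RA they numbered 2 to 3 and 1 to 1, and between genotypes 0 to 2 in control, 0 to 1 after 8 h and 1 to 3 after 72 h of RA. A filter at 200 left 4 inhibitors tested, 2 of them called in wild-type cells at 72 h. A floor of 100 called 2 in knockout cells at 72 h against control and 2 against 8 h, 2 in the 72 h interaction, 1 between genotypes in control cells and 0 after 8 h of RA. The mean of the probe sets called 0 in knockout cells at 72 h against control, 0 against 8 h and 0 between genotypes after 8 h of RA. Between genotypes in control cells 0 were called with no filter, 0 with the compared groups only, 1 with log2 of the signal plus 32 and 0 without both control arrays of replicate 1. After 8 h of RA 0 were called with no filter, with every probe set on its own or with quantile normalization. Over single inhibitors, 1683 alternative values were computed, of which 1610 stayed on their side of the threshold, 61 lost and 12 gained a call, and 0 reversed a called direction. The replicate block changed the calls named in the report, 3 inhibitors being called between genotypes at 72 h, and no other call of an inhibitor. Over all genes it called 174 and 190 after 8 h of RA in wild-type and knockout cells (103 and 109 without it) and 741 between genotypes at 72 h (463). With the compared groups only these 8 h counts were 13 and 62, with no filter 67 and 57, and the counts between genotypes 168 in control (528) and 266 after 8 h (525). The 72 h interaction called 39 genes, and 11 with a filter at 200, 188 with a floor of 100, 9 with the compared groups only, 7 with log2 of the signal plus 32, 78 with the mean of the probe sets, 123 with no filter and 21 with quantile normalization. It called 1 gene without the 72 h array of replicate 2 of either genotype, 8 and 14 without that of replicate 1 in wild-type and knockout cells, 11 without both control arrays of replicate 1, 11 to 16 without any knockout control array or wild-type control replicate 1 or 3, and 24 without knockout 8 h replicate 1. The 8 h interaction called 0, and 2 with no filter. Between genotypes, leaving out 1 of the 4 arrays at 72 h left 101 to 186 genes called at 72 h, and leaving out both control arrays of replicate 1 left 139 in control cells. Leaving out a 72 h array also brought the 72 h calls against control to 1456 and 1485 in wild-type (2814) and to 1358 and 1488 in knockout cells (2622). Cdkn2a, Cdkn2b and Cdkn2c lie near the floor, so their differences are the most limited by signal over background.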
